A study of Mus musculus with 6 samples.

Results

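Interferon-stimulated genes are the genes that cells switch on when interferon reaches its receptors, and 41 of them were followed here in tumor endothelial cells (ECs). They were chosen by name as well-known interferon targets, with earlier results of these data known, and the rule that names them uses no measured value. All 41 were listed in every sample, among 24346 gene symbols in all, and all 41 passed the filter of a mean of at least 1 FPKM (fragments scaled to the length of the transcript and to the mapped reads of the library), which left 10964 genes for testing. MC38 colon carcinoma cells were grown under the skin of C57BL/6 mice that were either wild type (WT) or lacked the gene for the secreted peptide Apelin (Apelin-KO, on the same background), 8 to 10 weeks old at the start. Tumors were taken at day 19, and CD31-positive, CD45-negative cells were sorted and sequenced in 3 WT and 3 Apelin-KO samples. The labels add saline to every sample, and nothing in the text of the study ties an infusion to this experiment. The knockout is constitutive, so every host cell lacked Apelin, while the inoculated tumor cells were the same in both genotypes. Neither the labels nor the methods say whether a sample came from 1 mouse or from a pool, so the p-values below measure the spread between these 6 samples.

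Type I interferons signal through Ifnar1 and Ifnar2, and interferon gamma through Ifngr1 and Ifngr2. Both receptors signal through JAK kinases. Type I interferon activates a complex with Stat2 and Irf9 that binds the interferon-stimulated response element (ISRE), and interferon gamma acts through the gamma-activated site (GAS) and raises Irf1 among other genes. Irf1 and Irf7 can in turn bind ISRE-like sites. The Ifit, Oas and Mx families are the standard readout of the type I arm, and the guanylate-binding proteins (Gbp) and immunity-related GTPases (Irg) respond strongly to interferon gamma, although most of these genes respond to both. In tumors, ECs respond to interferon with genes of antigen presentation and of leukocyte capture.

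The labels held for the targeted gene. Apln measured 432, 435 and 504 FPKM in the WT samples and 9.96, 17.5 and 24.3 FPKM in the Apelin-KO samples, a log2 fold change (WT minus Apelin-KO throughout) of 4.73 (standard error, SE, 0.29, adjusted p = 0.00747), and it was the only gene called after adjustment, which is 0.00912% of the genes tested. Depth was not given and was estimated at 8920000 to 10170000 reads per sample. Endothelial markers were high in all 6 samples, with Pecam1 (CD31) at 553 to 846 FPKM. Hematopoietic markers were present in cells sorted as CD45-negative, with Ptprc (CD45) itself at 0.043 to 4.84 FPKM. Over 20 of them the summed level was 651, 996 and 385 FPKM in WT 1, 2 and 3 and 251, 466 and 411 FPKM in Apelin-KO 1, 2 and 3, and 13 of the 14 tested were higher in WT. The T cell markers Cd3e, Cd4 and Cd8a reached at most 0.497 FPKM. Nkg7, a gene of cytotoxic lymphocytes, measured 2.1, 4.56 and 4.12 FPKM in WT and 0.526, 1.76 and 0.695 FPKM in Apelin-KO samples. Its log2 fold change was 1.21 (adjusted p = 0.501). Gzmb, of the same cells, measured 1.215, 1.37 and 0 FPKM in WT and 0.439, 0 and 0.087 FPKM in Apelin-KO samples. Lcp1, a gene of leukocytes in general, made up 109 to 139 FPKM of these sums and was lower in every WT sample, whereas the myeloid gene Lyz2 measured 185, 380.2 and 101 FPKM in WT and 40.9, 127 and 114 FPKM in Apelin-KO samples. Fibroblast markers were higher in WT in 6 of the 6 tested, and endothelial markers were lower in WT in 15 of 15, with a mean log2(FPKM + 1) of 7.95, 7.77 and 8.07 for WT 1, 2 and 3, compared with 8.15, 8.12 and 8.22 for Apelin-KO 1, 2 and 3. Of 7 pericyte markers tested, 5 were lower in WT and 2 higher, with a median log2 fold change of -0.26. Rgs5 was the furthest apart of these (log2 fold change -0.98, adjusted p = 0.214).

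The 41 genes were expressed in every sample, in summed levels of 3216, 3347 and 3806 FPKM in WT 1, 2 and 3 and of 2432, 3303 and 3456 FPKM in Apelin-KO 1, 2 and 3. The genotypes therefore overlapped in the sum, with Apelin-KO 1 alone below all WT samples. On the scale log2(FPKM + 1), 36 of 41 genes (87.8%) had a fold change above 0, meaning a higher mean in WT, against 47.5% of all genes tested. Their median log2 fold change was 0.23, against -0.01 over all genes tested, and it was 0.11 without Apelin-KO 1 and 0.15 with array weights. None of the 41 passed an adjusted p-value of 0.05 in limma, and the lowest adjusted p was 0.501. At an unadjusted p-value under 0.05, 7 genes were higher in WT (Oas1a, Oas3, Mx1, Zbp1, Herc6, Ifi35 and Ifi44), where 5.17% of all genes tested were, and 1 was lower (Eif2ak2), where 4.25% were. The 3 WT values lay above all 3 Apelin-KO values for 7 genes (Oas1a, Oas3, Zbp1, Parp9, Herc6, Ifi35 and Ifi44) against 6.61% of all genes tested, and below them for Eif2ak2 alone against 7.77%. Interferon-stimulated genes share their regulators, so these are not counts of independent events. Oas1a, Oas3 and Eif2ak2 kept an unadjusted p-value under 0.05 whichever sample was left out, and the other 5 lost it in at least 1 such fit. The 7 genes higher by p became 2 without WT 3, 3 without Apelin-KO 1, 4 without WT 2 and 17 without Apelin-KO 2, where 6.77%, 4.53%, 2.86% and 5.71% of all genes tested were. The 36 genes above 0 became 29 without Apelin-KO 1 and 40 without Apelin-KO 3. In sorted bulk RNA, fewer cells of a responding type and less RNA per cell cannot be told apart.

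**Figure D1:**
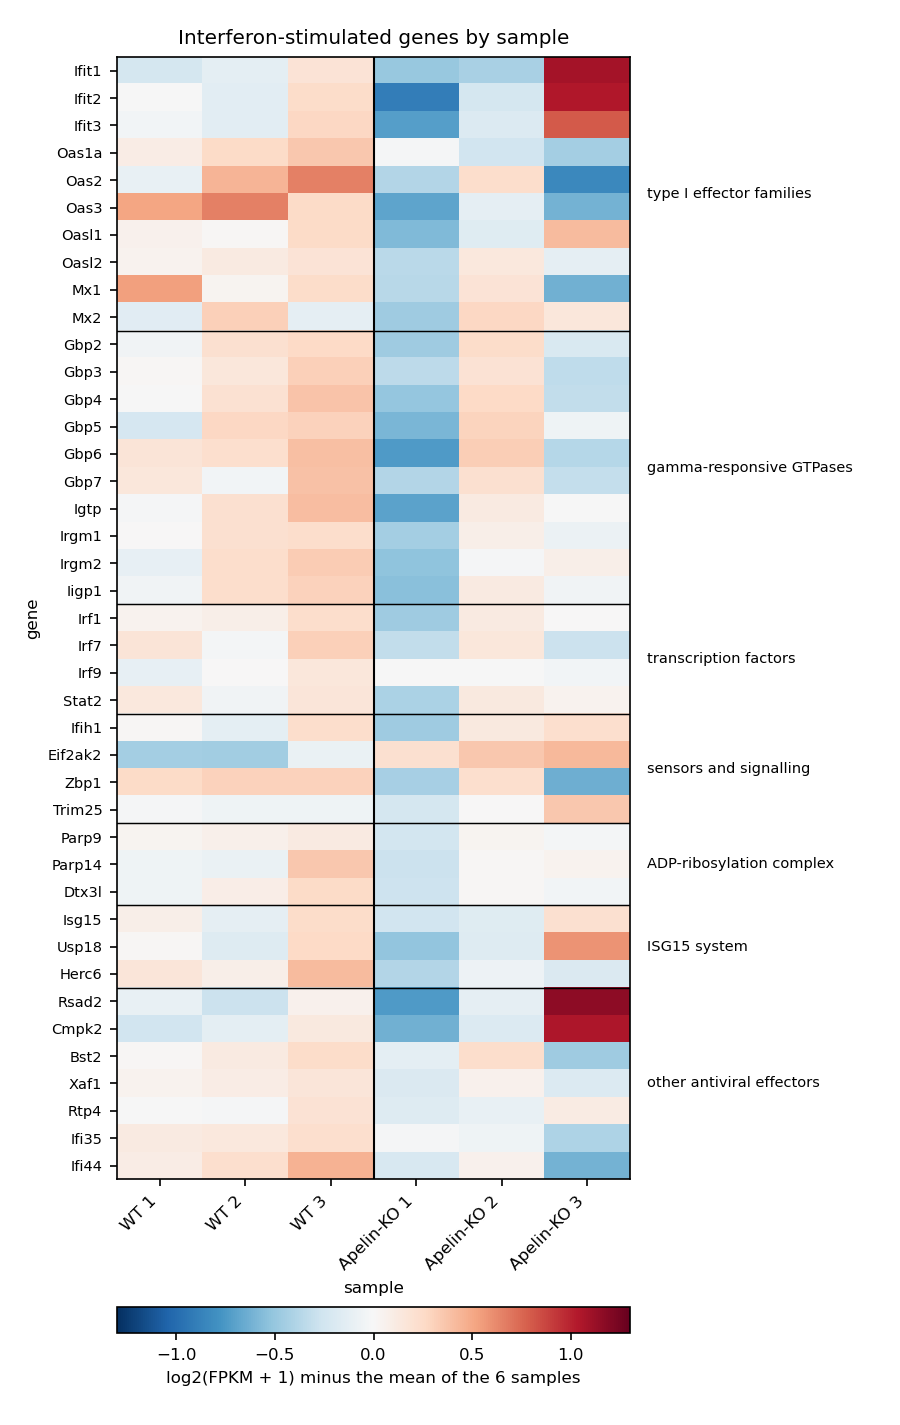
Heat map of the 41 interferon-stimulated genes (rows, by role) in the 6 tumor EC samples (columns). Color is log2(FPKM + 1) minus the mean of the 6 samples for that gene. Apelin-KO 1 had the lowest value for 32 genes and WT 3 the highest for 28, and Apelin-KO 3 held both high and low genes.

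**Figure D2:**
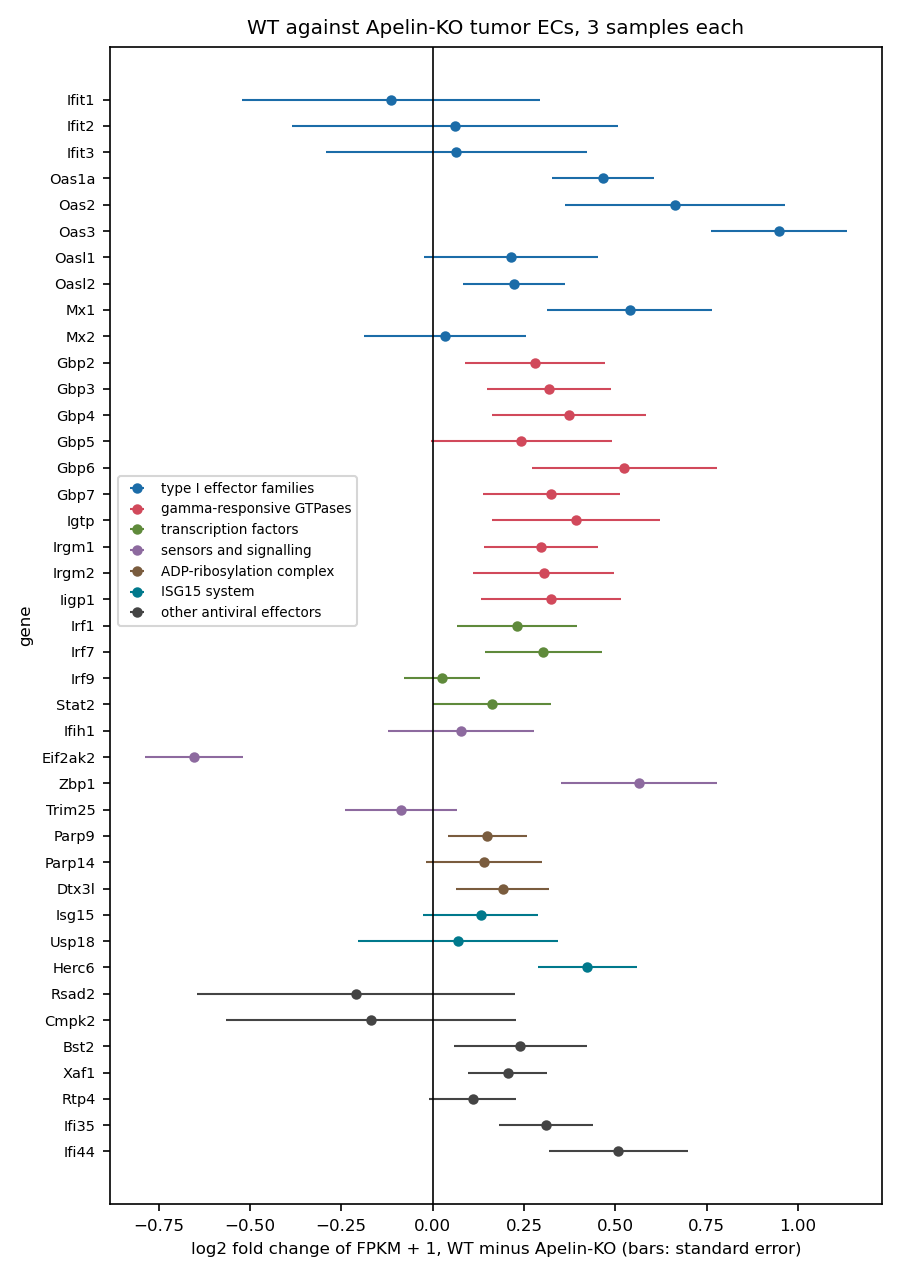
Log2 fold change of FPKM + 1, WT minus Apelin-KO, for the 41 genes, with bars of 1 standard error from limma (3 samples per genotype). The points run from -0.65 (Eif2ak2) to 0.95 (Oas3), and 36 of 41 lie right of 0.

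As a description of the sequence before these genes, the 250 bases before the RefSeq start (build GRCm38.p6) were searched for an ISRE core (GAAA, any 2 bases and GAAA again) on both strands, and for a GAS core (TTC, any 3 bases and GAA), which reads the same on both strands. The 2 patterns can overlap. A promoter was found for 30 of the 41 genes. An ISRE core was present for 15 of these 30 genes, against 3.46% of all 27025 genes with a promoter and 3.32% of the genes tested. A GAS core was present for 9 of 30, against 8.13% of all genes with a promoter. All 7 of the Gbp and Irg genes with a promoter held an ISRE core, and 4 of these 7 a GAS core as well. Among the Ifit, Oas and Mx genes, 4 of 7 held an ISRE core and 2 of 7 a GAS core. A match is a description of letters and not a site shown to be bound.

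The sequences below are the type I promoters with an ISRE core, shown because the Ifit and the Oas genes that carry them stood on opposite sides of the WT mean in Apelin-KO 3. Each is written 5′ to 3′ on the strand of the gene with the ISRE and GAS cores in capitals, and none of them lies in an annotated exon. Ifit1 is at chr19:34640770-34640828 on the plus strand, Ifit3 at chr19:34583358-34583431 on the plus strand, Oas1a at chr5:120907526-120907638 on the minus strand and Oas3 at chr5:120777710-120777749 on the minus strand.
Ifit1: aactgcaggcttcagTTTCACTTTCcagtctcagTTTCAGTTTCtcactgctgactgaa
Ifit3: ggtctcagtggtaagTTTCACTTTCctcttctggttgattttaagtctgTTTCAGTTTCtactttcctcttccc
Oas1a: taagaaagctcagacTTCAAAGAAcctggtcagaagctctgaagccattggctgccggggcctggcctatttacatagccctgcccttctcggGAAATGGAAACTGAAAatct
Oas3: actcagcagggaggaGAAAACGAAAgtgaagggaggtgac
Ifit1 and Ifit3 each held 2 separate ISRE cores in the reverse orientation. In Oas1a, 2 ISRE cores shared their middle bases near the start, with a GAS core further upstream.

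The next 3 stretches are from gamma-responsive GTPases and are shown for the pairing of both elements within a short stretch. None of them lies in an annotated exon. Gbp7 is at chr3:142530215-142530307 on the plus strand, Igtp at chr11:58199496-58199546 on the plus strand and Irgm2 at chr11:58214887-58214937 on the plus strand.
Gbp7: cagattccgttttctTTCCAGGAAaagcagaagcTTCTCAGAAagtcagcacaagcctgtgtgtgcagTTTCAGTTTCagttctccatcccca
Igtp: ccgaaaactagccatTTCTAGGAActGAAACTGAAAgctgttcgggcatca
Irgm2: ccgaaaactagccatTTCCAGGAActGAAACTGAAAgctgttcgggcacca
In Igtp and Irgm2 a GAS core stood just before an ISRE core, and the 2 stretches were the same at 49 of 51 bases. The Irgm2 stretch lies in an intron of the Irgm2 locus by GENCODE, which places an earlier start for that gene.

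The interferon ligands themselves were hardly seen. Of 21 interferon genes listed in the files, 19 were at 0 in all 6 samples. Interferon gamma (Ifng) was listed at 0.442 FPKM in WT 2 and at 0 elsewhere, and Ifne at 0.238 FPKM in WT 3 and 0.231 FPKM in Apelin-KO 3. The receptors were well expressed, and 5 of 6 were tested with none called. Ifnar1, a subunit of the type I receptor, measured 25.5, 24.8 and 30.1 FPKM in WT and 30.3, 27.5 and 35.1 FPKM in Apelin-KO samples (log2 fold change -0.20, SE 0.13). Ifnar2 had a log2 fold change of -0.07, and the gamma receptor subunits Ifngr1 and Ifngr2 and the shared lambda receptor chain Il10rb lay at -0.05, -0.02 and -0.02, values that turned positive under quantile normalization. Ifnlr1 was at or near 0. The kinases Jak1, Jak2 and Tyk2 had log2 fold changes of -0.06, -0.19 and -0.17, with overlapping genotypes.

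Among 6 inhibitors of the pathway, 2 were higher in WT at an unadjusted p-value under 0.05 and 0 lower, against 5.17% and 4.25% of all genes tested. Ptpn2, a phosphatase that acts on JAK kinases, did not overlap between genotypes, at 19.9, 22.8 and 20.9 FPKM in WT and 14.7, 17.8 and 17.5 FPKM in Apelin-KO samples (log2 fold change 0.33, adjusted p = 0.507). Ptpn6, a phosphatase of blood cells, measured 5.35, 9 and 2.37 FPKM in WT and 1.42, 2.7 and 1.67 FPKM in Apelin-KO samples (log2 fold change 1.05, adjusted p = 0.512). Its order over the WT samples was that of the hematopoietic markers, highest in WT 2 and lowest in WT 3, and their part in its values was not tested. Socs1, the feedback inhibitor induced by interferon, had a log2 fold change of 0.40 (SE 0.22) and overlapped. The remaining inhibitors lay below 0, with Socs3 at -0.21, Irf2 at -0.22 and Pias1 at -0.02.

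Of the transcription factors among the 41 genes, all 4 had fold changes above 0 and none passed an unadjusted p-value of 0.05. Irf7, the factor that amplifies type I responses, was the most abundant at 303, 265 and 333 FPKM in WT 1, 2 and 3 and 215, 298 and 222 FPKM in Apelin-KO 1, 2 and 3 (log2 fold change 0.30, SE 0.16, adjusted p = 0.592). Apelin-KO 2 lay inside the WT range and the other 2 lay below it. Irf1, the factor of the gamma arm, measured 80.1, 82.02 and 91.3 FPKM in WT and 56.2, 84.2 and 77.97 FPKM in Apelin-KO samples (log2 fold change 0.23, SE 0.16). Its promoter held a GAS core and no ISRE core, in the stretch at chr11:53769909-53769947 on the plus strand printed here because Irf1 is the first relay of interferon gamma.
Irf1: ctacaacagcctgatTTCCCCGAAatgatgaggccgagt
Stat2 measured 21.5, 18.8 and 21.9 FPKM in WT and 14.4, 21.3 and 20.2 FPKM in Apelin-KO samples (log2 fold change 0.16). Irf9 had the smallest log2 fold change of the 41 in either direction, at 43.7, 47.5 and 52.4 FPKM in WT and 47.2, 47.3 and 46.2 FPKM in Apelin-KO samples, with a log2 fold change of 0.02 and a 95% interval of -0.22 to 0.27.

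Of the 10 type I effector genes, Oas1a and Oas3 did not overlap between the genotypes, against 6.61% of all genes tested, and the other 8 did. The Oas enzymes make oligoadenylates that activate the nuclease RNase L. Oas3 (chr5:120753098-120777661, minus strand) measured 8.57, 9.57 and 6.92 FPKM in WT 1, 2 and 3 and 3.15, 5.17 and 3.36 FPKM in Apelin-KO 1, 2 and 3. The groups were well apart, and the Apelin-KO mean was 46.6% of the WT mean (3.89 ± 1.11 against 8.35 ± 1.34 FPKM, SD, n = 3 each). The log2 fold change was 0.95 (SE 0.19, adjusted p = 0.501). Oas1a (chr5:120896256-120907521, minus strand) measured 43.9, 48.9 and 52.4 FPKM in WT and 40.5, 34.3 and 29.9 FPKM in Apelin-KO samples, again without overlap, with a log2 fold change of 0.47 (SE 0.14, adjusted p = 0.501). Its paralog Oas1g, counted apart, showed 6.52, 6.38 and 6.81 FPKM in WT and 3.3, 5.35 and 2.86 FPKM in Apelin-KO samples. Whether reads were shared between Oas1a and Oas1g is not known. Oas2, which lies beside Oas3 on chromosome 5 with a gap of 3244 bases, measured 6.48, 9.9 and 11.6 FPKM in WT and 5.17, 8.37 and 3.48 FPKM in Apelin-KO samples (log2 fold change 0.66, SE 0.30, adjusted p = 0.540), with Apelin-KO 2 above WT 1.

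The related Oasl proteins overlapped between the genotypes. Oasl2 measured 70.2, 73.98 and 77.2 FPKM in WT and 53.4, 75.02 and 62.6 FPKM in Apelin-KO samples (log2 fold change 0.22, adjusted p = 0.644). Oasl1, which restrains Irf7 translation, measured 38.8, 37.7 and 44.4 FPKM in WT and 24.7, 33.2 and 49.8 FPKM in Apelin-KO samples (log2 fold change 0.21), with Apelin-KO 3 the highest of all samples. The Mx genes encode dynamin-like GTPases that block viruses, and both are known to be defective in most laboratory strains, C57BL/6 included. GENCODE lists Mx2 as a polymorphic pseudogene. Both were low, with an estimated 13.4 to 71.9 reads per sample for Mx1 and 18.2 to 48.6 reads for Mx2. Mx1 measured 2.24, 1.28 and 1.63 FPKM in WT and 0.74, 1.52 and 0.448 FPKM in Apelin-KO samples (log2 fold change 0.54, adjusted p = 0.525), with Apelin-KO 2 inside the WT range. The log2 fold change of Mx1 was 0.97 with a pseudocount of 0.1 and 0.19 with one of 5, and among the settings that kept all samples its unadjusted p-value stayed under 0.05 with median-of-ratios scaling alone. Mx2 measured 1.33, 2.2 and 1.37 FPKM in WT and 0.864, 2.1 and 1.85 FPKM in Apelin-KO samples (log2 fold change 0.03), and this sign turned under quantile normalization.

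The Ifit proteins bind foreign RNA ends, and their genes showed no stable difference between the genotypes. Ifit1 (chr19:34640871-34650009, plus strand) measured 47.4, 50.95 and 62.9 FPKM in WT 1, 2 and 3 and 39.2, 41.4 and 119 FPKM in Apelin-KO 1, 2 and 3. Apelin-KO 3 was the highest of all 6 samples while Apelin-KO 1 and 2 were the lowest. The log2 fold change of -0.11 had a 95% interval of -1.08 to 0.85. Ifit2, on the same chromosome, measured 112, 102 and 133 FPKM in WT and 59.7, 95.3 and 232 FPKM in Apelin-KO samples, and Ifit3 measured 69.6, 64.9 and 86.1 FPKM in WT and 42.97, 63.2 and 125 FPKM in Apelin-KO samples. For Ifit2 and Ifit3 the Apelin-KO mean in FPKM was 112% and 105% of the WT mean, whereas the log2 fold changes were 0.06 and 0.06 toward WT, since Apelin-KO 3 weighs more in the linear mean. All 3 Ifit genes were below every WT sample in Apelin-KO 1 and Apelin-KO 2. Without Apelin-KO 3 their log2 fold changes were 0.40, 0.60 and 0.48, and the median over the 10 Ifit, Oas and Mx genes went from 0.22 to 0.40. Without Apelin-KO 1 that median was 0.04. Of these 10 genes, 5 (Ifit1, Ifit2, Oas1a, Oas3 and Oasl1) were higher in WT at an unadjusted p-value under 0.05 without Apelin-KO 3, against 4.17% of all genes tested. Without Apelin-KO 2, 5 were (Mx1, Oas1a, Oas2, Oas3 and Oasl2), against 5.71%. Without Apelin-KO 1, 2 were (Oas1a and Oas3), against 4.53%. Reads of Ifit3 may be shared with its near-identical copy Ifit3b.

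Among the gamma-responsive GTPases, all 10 had a log2 fold change above 0, from 0.24 for Gbp5 to 0.52 for Gbp6 with a median of 0.32, and none passed an unadjusted p-value of 0.05 (adjusted p from 0.565 to 0.785). The WT and Apelin-KO values overlapped for all 10. Without Apelin-KO 1 their log2 fold changes ran from 0.0048 (Gbp5) to 0.29 (Gbp6), with Iigp1 at 0.13 and Igtp at 0.14. Without Apelin-KO 2, 6 of them (Gbp2, Gbp3, Gbp4, Gbp6, Gbp7 and Irgm1) were higher in WT at an unadjusted p-value under 0.05, against 5.71% of all genes tested, and 7 did not overlap, against 12.6%. Irg proteins disrupt the vacuoles of intracellular parasites. The most abundant was Iigp1 (Irga6, on chromosome 18) at 301, 364 and 383 FPKM in WT 1, 2 and 3 and 212, 336 and 299.8 FPKM in Apelin-KO 1, 2 and 3 (log2 fold change 0.32, SE 0.19). Irgm1, a regulator of the other Irg proteins, followed at 224, 259 and 262 FPKM in WT and 164, 236 and 212 FPKM in Apelin-KO samples (log2 fold change 0.30, adjusted p = 0.591). In both genes Apelin-KO 1 was far below the rest, Apelin-KO 3 below the WT range and Apelin-KO 2 inside it.

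Igtp (Irgm3) measured 98.2, 115 and 132 FPKM in WT and 60.97, 108 and 99.1 FPKM in Apelin-KO samples (log2 fold change 0.39), and Irgm2 48.1, 60.7 and 65.5 FPKM in WT and 35.8, 51.2 and 54.8 FPKM in Apelin-KO samples (log2 fold change 0.30). The 2 loci overlap by 7974 bases on the same strand of chromosome 11, so reads there could be assigned to either. The Gbp proteins coat and lyse such vacuoles and bacteria, and Gbp2 led them at 109.9, 131 and 136 FPKM in WT and 82.2, 134 and 98.5 FPKM in Apelin-KO samples (log2 fold change 0.28, SE 0.19). Gbp3 measured 76.5, 83.4 and 94.1 FPKM in WT and 59.4, 86.1 and 59.99 FPKM in Apelin-KO samples (log2 fold change 0.32), and Gbp7 measured 43.9, 38.7 and 52.03 FPKM in WT and 30.2, 45.9 and 31.9 FPKM in Apelin-KO samples (log2 fold change 0.33). In both, Apelin-KO 1 and 3 were below the WT range. Gbp4 measured 35.7, 41.3 and 46.5 FPKM in WT and 24.97, 43.2 and 28.5 FPKM in Apelin-KO samples (log2 fold change 0.37). Gbp5, linked to inflammasome activation, had the smallest difference of the family, at 11.3, 16.2 and 16.6 FPKM in WT and 8.41, 16.4 and 12.7 FPKM in Apelin-KO samples. Gbp6, the family member furthest apart, measured 9.46, 9.86 and 11.2 FPKM in WT and 4.6, 10.6 and 6.19 FPKM in Apelin-KO samples (adjusted p = 0.565), where Apelin-KO 2 lay within the WT range. Gbp genes are close paralogs and their reads may be split unevenly between them. The Gbp4 locus overlaps those of Gbp8 and Gbp9 on the same strand.

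The extremes were the same across the GTPases, with Apelin-KO 1 the lowest sample and WT 3 the highest for all 10 genes. Apelin-KO 3 was below every WT sample for 7 and Apelin-KO 2 for 0. On the mean of log2(FPKM + 1) the 10 genes stood at 5.91, 6.10 and 6.25 for WT 1, 2 and 3, compared with 5.39, 6.10 and 5.75 for Apelin-KO 1, 2 and 3. Their median log2 fold change was 0.14 without Apelin-KO 1 and 0.48 without Apelin-KO 2. The hematopoietic markers shared the order of these means over the Apelin-KO samples (1 lowest, then 3, then 2) and not that of the WT samples. Their mean log2 level over 14 tested genes stood at 4.71, 5.20 and 3.86 for WT 1, 2 and 3, compared with 2.96, 4.04 and 3.83 for Apelin-KO 1, 2 and 3, so that WT 3, the highest sample for the GTPases, was below Apelin-KO 2. Apelin-KO 1 was lowest in both lists and also in the 6 fibroblast markers, whose mean log2 level stood at 4.87, 4.76 and 4.13 for WT 1, 2 and 3, compared with 3.72, 4.07 and 4.17 for Apelin-KO 1, 2 and 3. T cell markers were near 0 and Nkg7 was higher in every WT sample than in any Apelin-KO sample, as given above. The part of other cells in the GTPase values was not tested.

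**Figure D3:**
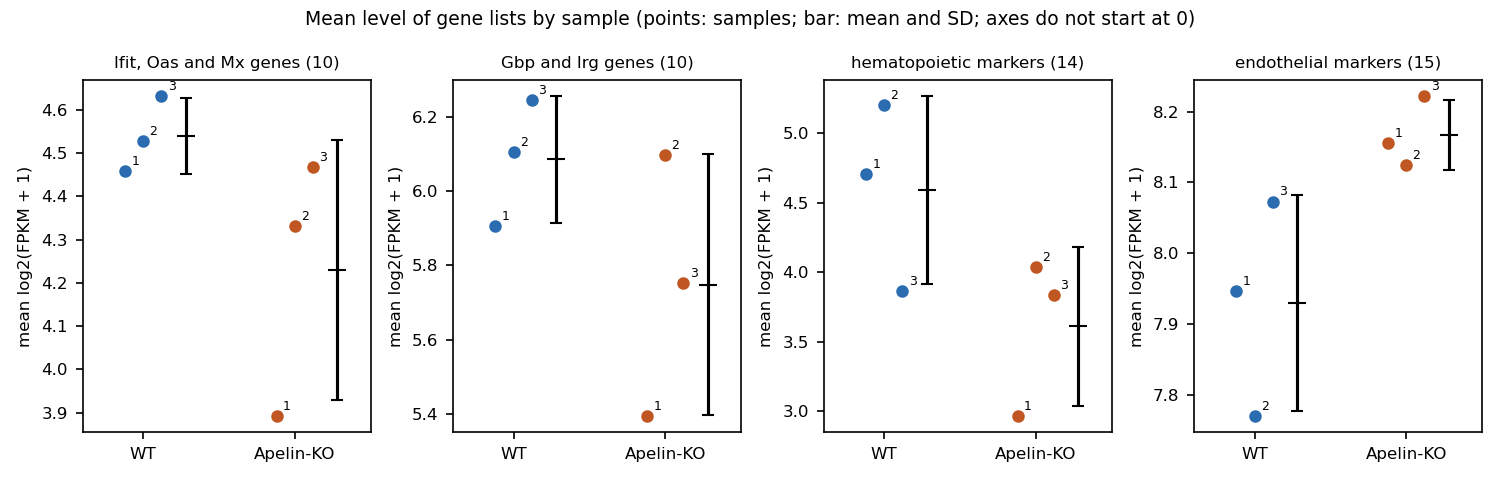
Mean log2(FPKM + 1) of 4 gene lists in each sample, with points for samples and bars for the mean and SD of 3 samples. The Ifit, Oas and Mx genes and the Gbp and Irg genes have their lowest value in Apelin-KO 1 and their highest in WT 3, whereas hematopoietic markers are highest in WT 2 and endothelial markers highest in Apelin-KO 3 (axes do not start at 0).

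Among the sensors, Eif2ak2 and Zbp1 differed in opposite directions. Eif2ak2 (PKR), the kinase that halts translation on double-stranded RNA, was the only one of the 41 genes with every Apelin-KO sample above every WT sample. It (chr17:78852564-78882573, minus strand) measured 8.79, 8.74 and 11.5 FPKM in WT 1, 2 and 3 and 14.4, 15.9 and 16.8 FPKM in Apelin-KO 1, 2 and 3. The Apelin-KO mean was 162% of the WT mean (15.7 ± 1.24 against 9.69 ± 1.6 FPKM, SD, n = 3 each), with a log2 fold change of -0.65 (SE 0.13, adjusted p = 0.501). The mean log2 level of the 15 endothelial markers was also higher in every Apelin-KO sample than in any WT sample, as 4 of the 15 were singly (against 7.77% of all genes tested), and their part in the Eif2ak2 values was not tested. The Eif2ak2 promoter held a GAS core and no ISRE core in the window searched.

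Zbp1, the sensor of Z-form nucleic acids that can trigger necroptosis, ran the other way. It measured 101, 105 and 105 FPKM in WT, a narrow range, and 62.6, 99.3 and 54.5 FPKM in Apelin-KO samples, where Apelin-KO 2 was close to WT and the others were far below (log2 fold change 0.56, SE 0.21, adjusted p = 0.515). Ifih1 (MDA5), the cytosolic sensor of long double-stranded RNA, measured 14.9, 13.4 and 17.4 FPKM in WT and 10.4, 16.1 and 17.3 FPKM in Apelin-KO samples (log2 fold change 0.08, SE 0.20). Trim25, a ubiquitin ligase of RNA sensing, measured 24.5, 23.7 and 23.7 FPKM in WT and 21, 24.8 and 31.8 FPKM in Apelin-KO samples (log2 fold change -0.09). In a wider list of 13 sensing genes, 10 were tested and 1 was higher in WT at an unadjusted p-value under 0.05, against 5.17% of all genes tested. This was Dhx58 (LGP2), a helicase related to Ifih1, at 18.8, 20.6 and 23.1 FPKM in WT and 13.96, 16.4 and 15.98 FPKM in Apelin-KO samples (log2 fold change 0.41, adjusted p = 0.501).

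The ISG15 system attaches the ubiquitin-like protein Isg15 to other proteins. Isg15 itself measured 149, 130.1 and 168 FPKM in WT and 119, 127 and 164 FPKM in Apelin-KO samples, with overlap and a log2 fold change of 0.13 (95% interval -0.24 to 0.51). Its promoter, shown because it carries 3 overlapping ISRE cores, the most of the 30 searched, lies at chr4:156200860-156200911 on the minus strand.
Isg15: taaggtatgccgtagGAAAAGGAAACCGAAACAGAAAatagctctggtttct
Herc6, the ligase for Isg15 in mice, did not overlap between the genotypes, at 17.2, 16.2 and 20.7 FPKM in WT and 11.6, 14.6 and 13.3 FPKM in Apelin-KO samples (log2 fold change 0.42, SE 0.13, adjusted p = 0.501). Usp18, which removes Isg15 and also restrains the type I receptor, measured 108, 95.5 and 128 FPKM in WT and 74.9, 94.9 and 161 FPKM in Apelin-KO samples (log2 fold change 0.07, SE 0.27). Apelin-KO 3 was the highest of all samples for Usp18.

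Parp9 and Dtx3l, partners in an ADP-ribosylation and ubiquitin ligase complex that share their locus over 682 bases on opposite strands, had log2 fold changes of 0.15 and 0.19. Parp9 measured 38.9, 39.8 and 41.1 FPKM in WT and 31.9, 38.8 and 37.2 FPKM in Apelin-KO samples, without overlap although WT 1 and Apelin-KO 2 were nearly equal (adjusted p = 0.694). Dtx3l measured 39.4, 43.5 and 48.9 FPKM in WT and 33.8, 41.5 and 39.8 FPKM in Apelin-KO samples and overlapped. Parp14, a mono-ADP-ribosyltransferase, measured 21.1, 20.7 and 28.4 FPKM in WT and 18.03, 22.3 and 22.8 FPKM in Apelin-KO samples (log2 fold change 0.14, SE 0.16).

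Of the 7 remaining antiviral genes, Ifi35 and Ifi44 were higher in WT without overlap, against 6.61% of all genes tested. Ifi44 measured 111, 120.5 and 143 FPKM in WT and 89.9, 108 and 67.3 FPKM in Apelin-KO samples (log2 fold change 0.51, SE 0.19, adjusted p = 0.513). Ifi35 measured 75.2, 76.3 and 80.7 FPKM in WT and 68.7, 66.7 and 52.4 FPKM in Apelin-KO samples (log2 fold change 0.31, adjusted p = 0.525). Bst2 (tetherin), which holds budding virus at the membrane, was the most abundant of the 41 genes by mean, at 354, 381 and 414 FPKM in WT and 322, 413 and 255 FPKM in Apelin-KO samples. It overlapped, with a log2 fold change of 0.24 (SE 0.18). Xaf1, linked to apoptosis, measured 34.8, 36.02 and 37.5 FPKM in WT and 29.4, 34.9 and 29.4 FPKM in Apelin-KO samples (log2 fold change 0.21). Rtp4, a chaperone of receptors, measured 119, 119 and 136 FPKM in WT and 106, 112 and 129 FPKM in Apelin-KO samples (log2 fold change 0.11).

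Rsad2 (viperin), a radical SAM enzyme that makes an antiviral nucleotide, and Cmpk2, a mitochondrial nucleotide kinase, are neighbours on chromosome 12 with 12751 bases between them. Rsad2 measured 121, 107 and 135 FPKM in WT 1, 2 and 3 and 77.5, 119.6 and 290.2 FPKM in Apelin-KO 1, 2 and 3, and Cmpk2 measured 72.2, 78.9 and 93.9 FPKM in WT and 55.5, 76.1 and 179.5 FPKM in Apelin-KO samples. In both, Apelin-KO 3 stood far above all other samples and Apelin-KO 1 was the lowest. The log2 fold changes of -0.21 (SE 0.43) and -0.17 (SE 0.40) became 0.32 for each without Apelin-KO 3.

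**Figure D4:**
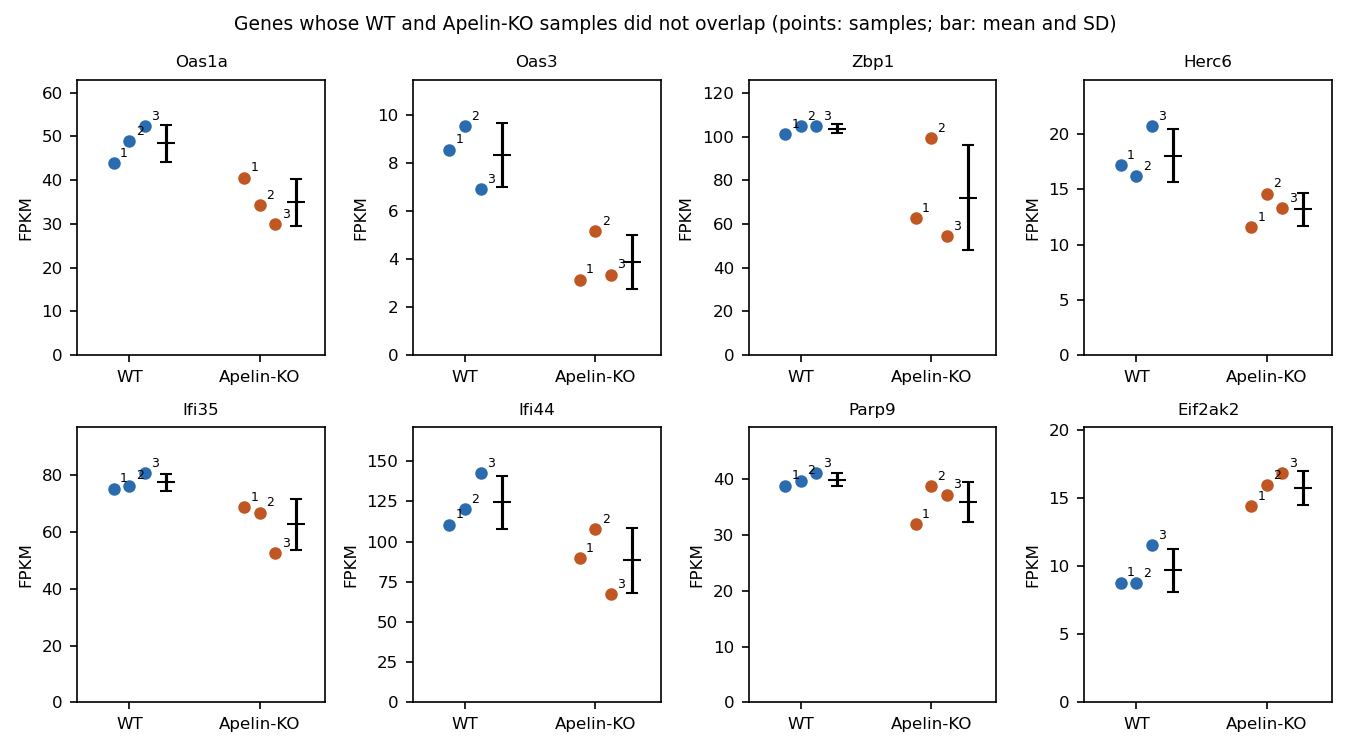
FPKM in each sample (points) with the mean and SD of 3 samples (bars) for the 8 genes whose WT and Apelin-KO samples did not overlap. Oas1a, Oas3, Zbp1, Parp9, Herc6, Ifi35 and Ifi44 are lower in all Apelin-KO samples, and Eif2ak2 is higher in all of them.

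The Apelin-KO samples differed from each other more than the WT samples did. The SD over samples on the log2 scale was larger in Apelin-KO than in WT for 36 of 41 genes (87.8%), against 58.5% of all genes tested, with a median SD of 0.322 in Apelin-KO and 0.177 in WT (0.164 and 0.136 over all genes tested). Apelin-KO 1 was below all WT samples for 39 of the 41 genes (95.1%, against 27.9% of all genes tested) and the lowest sample for 32 (78.0%), where it was the lowest for 19.1% of all genes tested. Apelin-KO 2 was below all WT samples for 14 genes (34.1%, against 23.7% of all genes tested) and above them for 2 (4.88%, against 25.9%). Apelin-KO 3 was divided. It was above every WT sample for 9 genes, namely Ifit1, Ifit2, Ifit3, Oasl1, Usp18, Rsad2, Cmpk2, Trim25 and Eif2ak2, and below every WT sample for 21, among them Oas1a, Oas2, Oas3, Mx1, Zbp1, Irf7, Bst2, Ifi44 and 7 of the Gbp and Irg genes.

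Over all genes tested Apelin-KO 3 was above every WT sample for 33.5% and below for 30.2%. Against the WT mean, on the log2 scale, Apelin-KO 3 differed by 1.26 for Rsad2, 1.14 for Ifit1, 1.14 for Cmpk2, 1.01 for Ifit2, 0.76 for Ifit3 and 0.55 for Usp18. It differed by -1.17 for Oas2, -1.09 for Oas3, -0.91 for Zbp1, -0.89 for Mx1 and -0.87 for Ifi44. The estimated depth of this sample lay within the range of the others. The median difference from the WT mean over the 41 genes was -0.54 for Apelin-KO 1, -0.05 for Apelin-KO 2 and -0.18 for Apelin-KO 3. Among the Gbp and Irg genes these medians were -0.68, 0.04 and -0.28, and among the Ifit, Oas and Mx genes -0.65, -0.23 and -0.05.

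**Figure D5:**
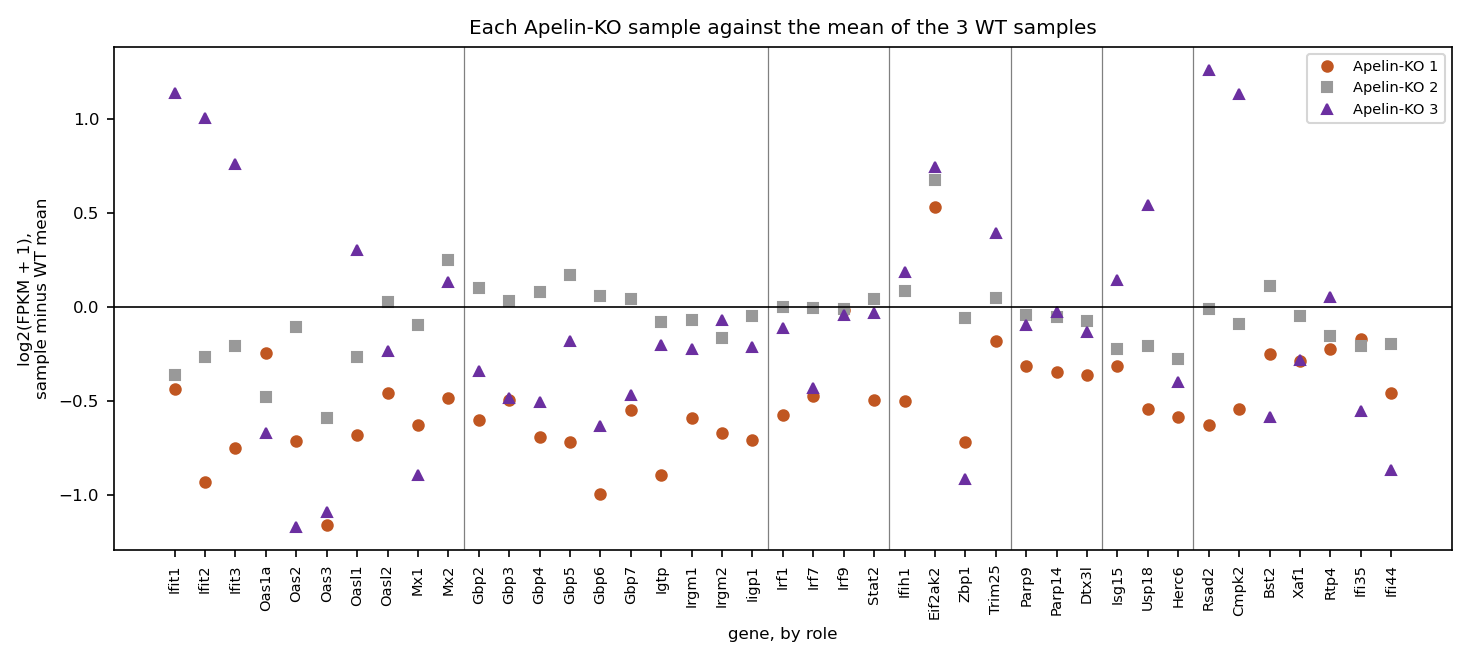
Log2(FPKM + 1) of each Apelin-KO sample minus the mean of the 3 WT samples, for the 41 genes grouped by role (grey lines part the roles). Apelin-KO 1 lies below 0 for most genes, and Apelin-KO 3 spans from 1.26 (Rsad2) to -1.17 (Oas2).

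A list of 40 further interferon-stimulated genes gave 39 in the files and 33 tested. None passed the adjusted threshold. At an unadjusted p-value under 0.05, 7 were higher in WT, against 5.17% of all genes tested, and 0 lower, and 30 of 33 had a fold change above 0, with a median log2 fold change of 0.24. The furthest apart was Ifi27l2a, a mitochondrial interferon-induced protein, at 101, 109.9 and 82.8 FPKM in WT 1, 2 and 3 and 38.3, 62.8 and 36.6 FPKM in Apelin-KO 1, 2 and 3 (log2 fold change 1.11, SE 0.22, adjusted p = 0.501). Slfn8 had a log2 fold change of 0.72, Oas1g of 0.68, Gbp8 of 0.56, Phf11b of 0.48, Phf11d of 0.34 and Gbp9 of 0.31. The low genes among them varied with the pseudocount, from 0.32 to 1.05 for Slfn8, from 0.40 to 0.81 for Oas1g and from 0.19 to 1.06 for Gbp8 over the settings that kept all samples, and Slfn8 was 0.41 without Apelin-KO 1. Ifitm3, which blocks viral entry and was far more abundant than any of the 41 genes, measured 3089.6, 2994 and 3625 FPKM in WT and 2994, 3449.7 and 2921 FPKM in Apelin-KO samples, with overlap and a log2 fold change of 0.05 (adjusted p = 0.916).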

How the data were processed

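RNA of sorted tumor ECs was sequenced for 3 WT and 3 Apelin-KO samples, which were grouped by the genotype in the labels. Stranded mRNA libraries were read from a single end over 75 bases and mapped by the authors to mm10. The submitters' processing notes name bcl2fastq 2.17.1.14, TopHat2 2.1.1, Bowtie2 2.2.4, SAMtools 1.0 and Cufflinks 2.2.1, while the methods text names other versions of the mapping tools. The deposited values are FPKM, made by the authors with Cufflinks, 1 value per gene symbol. The annotation, strand setting and filters are not given in the sources used here.

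FPKM were tested as log2(FPKM + 1), for genes whose mean reached 1 FPKM, in limma 3.58.1 in R 4.3.3 (two-sided moderated test, no block) and Benjamini-Hochberg adjustment over 10964 genes. An exact permutation test of 3 against 3 samples cannot go below p = 0.1 and was not used. The authors' analysis used a two-sided test without moderation, which was tried as an alternative. Depth was estimated from the steps of low FPKM values of genes with 1 transcript longer than 700 bases, assuming 200-base fragments, and 68.8% to 72.7% of these values lay within 0.1 of a whole read. Estimated reads are not counts and cover counting error only. The fit and the depth estimate were tested on simulated data. Gene positions are from GENCODE (GRCm38, the same sequence as mm10) and promoters from RefSeq, matched by symbol with Python 3.11.15. The genes named are all 41 interferon-stimulated genes and the pathway and marker lists. These genes and lists were chosen with earlier results of these data known. Near-identical copies and overlapping loci could share reads. Alternatives were the pseudocount (0.1 and 5), the filter (none, and 5 FPKM), median-of-ratios and quantile scaling, own variance, an intensity trend, array weights, a replicate block and each sample left out.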

Additional observations from a re-analysis of the deposited data

How the results depend on the processing

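No interferon-stimulated gene passed the adjusted threshold under any alternative (0 each time), and the lowest adjusted p among them was 0.107, without WT 3. The count higher in WT at an unadjusted p-value under 0.05, 7 as reported, was 3 with the variance estimated gene by gene (3.43% of all genes tested), 3 with array weights (5.72%) and 2 to 17 with a sample left out. The count higher in WT without overlap was 7 to 21 and the count lower without overlap 1 to 2 with a sample left out, where 9.41% to 14.2% and 10.7% to 15.8% of all genes tested did not overlap. The median log2 fold change of the Ifit, Oas and Mx genes was 0.042 to 0.40 and that of the Gbp and Irg genes 0.14 to 0.48. The cause was not tested, except that 2 samples overlap less often than 3 by construction. The labels and methods do not say whether same-numbered samples were handled together (correlations of their deviations -0.139, 0.207 and -0.0186). A replicate block gave 5 genes higher and 1 lower at an unadjusted p-value under 0.05 (4.82% and 3.32% of all genes tested), without Mx1, Ifi35 and Ifi44 and with Irgm2, and 0 adjusted. Log2 fold changes turned sign for Ifit1 (0.032) and Mx2 (-0.052) with array weights, and under quantile normalization for Mx2 (-0.083), Ifngr1 (0.0088), Ifngr2 (0.0030) and Il10rb (0.016). With a sample left out they spanned 0 for Ifit1 (-0.39 to 0.40), Ifit2 (-0.37 to 0.60), Ifit3 (-0.28 to 0.48), Oasl1 (-0.019 to 0.47), Mx2 (-0.19 to 0.18), Irf9 (-0.041 to 0.087), Stat2 (-0.0042 to 0.26), Ifih1 (-0.14 to 0.21), Trim25 (-0.22 to 0.068), Parp14 (-0.00044 to 0.22), Usp18 (-0.17 to 0.38), Rsad2 (-0.63 to 0.32), Cmpk2 (-0.52 to 0.32), Ifngr1 (-0.10 to 0.021), Ifngr2 (-0.090 to 0.015), Il10rb (-0.11 to 0.068) and Jak1 (-0.12 to 0.0090). Apart from these reversals, the values of single genes kept their direction (589 of 595 values under the other settings and 329 of 358 with a sample left out). At an unadjusted p-value of 0.05, Mx1, Zbp1, Ifi35 and Ifi44 were lost with the variance estimated gene by gene and with array weights. A filter of 5 FPKM leaves 39 of the 41 genes, without Mx1 and Mx2. Among the 41 genes, the Mx genes had the fewest estimated reads. Gbp8, outside the 41, was as low, at 13.9 to 48.9 estimated reads per sample.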
